A study of Mus musculus with 24 samples.

Results

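Axons are steered by secreted and membrane-bound cues that either attract or repel the growth cone, and the families described here are the classical ones. Semaphorins signal through plexins, alone or together with the neuropilin co-receptors. Ephrins bind Eph receptor tyrosine kinases, Slits bind Robo receptors, and netrins bind Dcc, neogenin (Neo1) and the Unc5 receptors. In adult sensory neurons these genes are known for their part in the growth and branching of axons and in the shaping of synapses. Tsc2, the gene deleted in these mice, encodes a subunit of the complex that holds the growth-promoting kinase mTORC1 in check.

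The axon guidance ligands and receptors were taken from the count files by symbol, as the protein-coding semaphorins of classes 3 to 7, plexins of classes A, B and D, both neuropilins, Eph receptors, ephrins, Slits, Robos, netrins, Unc5 receptors, Dcc and Neo1. Plexin C1 was left out by that rule, and Ntn3 was not analysed here. This gave 68 genes of the 47643 identifiers counted, of which 34 encode ligands and 34 encode receptors. By class they were 20 semaphorins, 8 plexins, 2 neuropilins, 14 Eph receptors, 8 ephrins, 3 Slits, 4 Robos, 3 netrins and 6 netrin receptors.

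The RNA came from GFP-positive cells sorted from L4 dorsal root ganglia (DRG), the lumbar ganglia that hold the cell bodies of sensory neurons. The ganglia were taken 3 days after a sciatic nerve crush, from the uninjured side. All mice carried Nav1.8-Cre and the reporter Rosa26-ZsGreen, with Tsc2 flox/+ in control mice and Tsc2 flox/null in Nav-Tsc2 mice. Control neurons thus lost 1 allele of Tsc2 as well and were a heterozygous rather than an intact comparison. Cre was driven by Nav1.8 (Scn10a), which is used by most nociceptors and by some myelinated neurons, and the sort was for the reporter and not for a neuronal subtype. Each genotype had 4 mice aged 8 to 9 weeks on a mixed C57BL/6 and AJ background, of which replicates 1 and 2 were male and replicates 3 and 4 female. Each mouse gave 3 libraries of 100 cells, and their counts were summed, so that n is the number of mice. In sorted pools, fewer cells of a type and less RNA per cell cannot be told apart.

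Libraries held between 8339220 and 34228180 counts on genes, and the mice between 47959617 and 61290435. Tsc2 was measured at 13.4, 24.7, 21.5 and 24.1 CPM (counts scaled to library size) in the control mice and at 8.70, 8.51, 7.30 and 11.0 CPM in the Nav-Tsc2 mice. The log2 fold change of Tsc2, Nav-Tsc2 over control, was -1.24 ± 0.22 (SE; edgeR, adjusted p = 0.0040), with every Nav-Tsc2 mouse below every control mouse. Scn10a, which defines the labelled cells, was present in both groups at 670.4 ± 138 CPM in control and 608 ± 35.1 CPM in Nav-Tsc2 mice (SD, n = 4). A gene was called changed when its adjusted p was below 0.05 over all 17178 genes tested and its log2 fold change was above 0.5 or below -0.5. By this rule 8.00% of all tested genes were lower and 9.12% were higher in Nav-Tsc2 mice.

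The guidance gene with the largest rise in Nav-Tsc2 neurons above a trace level was a semaphorin, Sema6a, and another semaphorin, Sema5a, was among the genes that fell. Of the 68 genes, 56 had enough counts to be tested. Higher in Nav-Tsc2 mice were 7 of the 56 (12.5%), the ligands Sema6a, Sema3c, Sema4f, Efna2 and Slit3 and the receptors Plxna1 and Plxna3. Lower were 3 (5.36%), the ligand Sema5a and the receptors Nrp2 and Epha4. Both shares were near those over all genes. The median log2 fold change of the tested members was 0.40, beside 0.0082 over all tested genes, with 36 members above 0 and 20 below. By role, 5 of 27 tested ligands were higher and 1 was lower, whereas 2 of 29 tested receptors were higher and 2 were lower. The mice of both genotypes did not overlap for 15 tested members, or 26.8%, against 26.9% of all tested genes. Without control mouse 3 the count of lower members became 5, and without control mouse 4, Nav-Tsc2 mouse 1 or Nav-Tsc2 mouse 2 the count of higher members became 4.

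**Figure D1:**
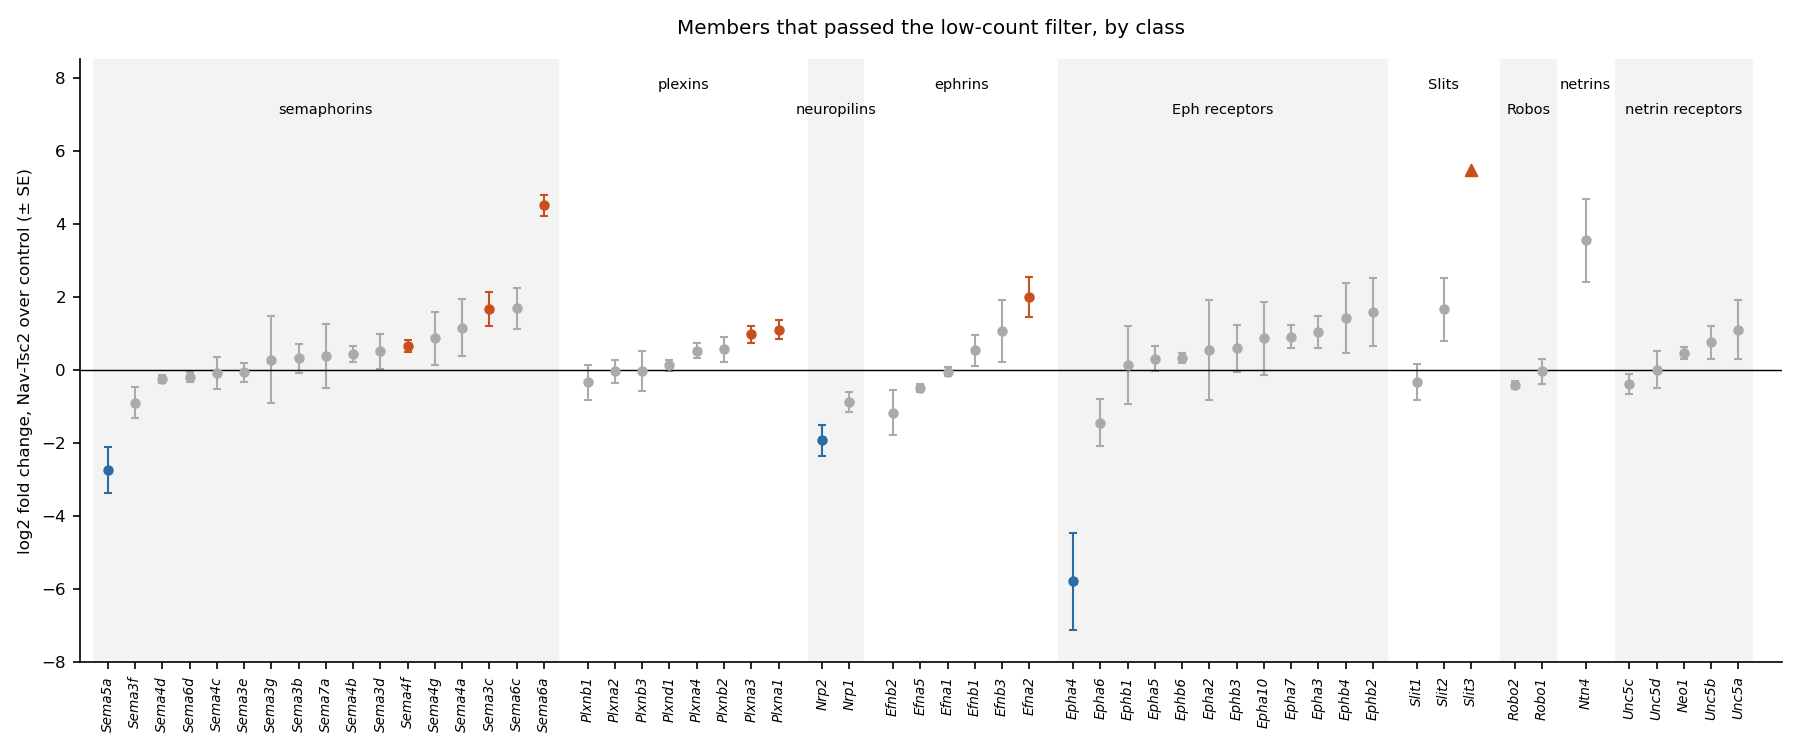
Log2 fold change (Nav-Tsc2 over control, vertical axis) with its SE for the 56 tested members, grouped by class and ordered within each class along the horizontal axis. Orange points were called higher, blue points lower and grey points not called. Slit3, at 0 in every control library, is drawn as a triangle at its lower bound of 5.47. Sema6a at 4.51 and Sema5a at -2.74 mark the ends of the semaphorin class.

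In control neurons the class with the highest length-scaled level was the ephrins. CPM divided by exon length in kilobases (RPKM) allow genes of different length to be compared, and the ephrins summed to 129.8 ± 16.8 RPKM in control mice, ahead of the semaphorins at 36.9 ± 2.17 RPKM and the plexins at 21.1 ± 6.38 RPKM (SD, n = 4). The neuropilins reached 17.1 ± 7.13 RPKM, the Eph receptors 7.50 ± 1.05 RPKM and the netrin receptors 5.35 ± 1.26 RPKM. Efna1 at 80.3 ± 14.9 RPKM and Efna5 at 47.5 ± 6.06 RPKM were the leading genes, each above the range of Nrp1, the next at 11.9 ± 3.98 RPKM. Nrp1, Sema4f at 9.75 ± 1.12 RPKM and Plxna2 at 8.15 ± 4.66 RPKM did not differ beyond their spread. The median tested member had 0.545 RPKM in control mice, beside 2.12 RPKM for the median tested gene, and 14 tested members lay above that gene. In all, 21 members were above 1 RPKM in control mice and 15 were below 0.1 RPKM in both genotypes.

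Sema6a encodes a transmembrane semaphorin that is known to bind plexins A2 and A4. It was measured at 6.86, 5.70, 3.83 and 2.57 CPM in the control mice and at 107, 117, 110.5 and 98.8 CPM in the Nav-Tsc2 mice. The groups were far apart. The log2 fold change was 4.51 ± 0.28 (edgeR, adjusted p = 2.24e-05), a 22.8-fold difference. No library of either genotype overlapped the other, with control libraries between 0.885 and 10.0 CPM and Nav-Tsc2 libraries between 83.4 and 185 CPM. The gene lies on the minus strand at positions 47235598 to 47368870 of chromosome 18 (GRCm38).

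The rise of Sema6a changed the make-up of the semaphorin class. Its share of the summed semaphorin RPKM was 1.48 ± 0.627% in control mice and 21.4 ± 1.76% in Nav-Tsc2 mice. Among all 68 members, it moved from rank 29 to rank 4 in RPKM. Its partner plexins did not move by a like amount: Plxna2 was at 140.0 ± 80.0 CPM in control and 136 ± 23.1 CPM in Nav-Tsc2 mice (edgeR, adjusted p = 0.951), and Plxna4 was at 80.9 ± 25.3 and 117 ± 8.00 CPM (log2 fold change 0.53 ± 0.20, adjusted p = 0.0909). The ratio of Sema6a to Plxna4 in RPKM was 0.0934 ± 0.0209 in control mice and 1.50 ± 0.183 in Nav-Tsc2 mice.

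**Figure D2:**
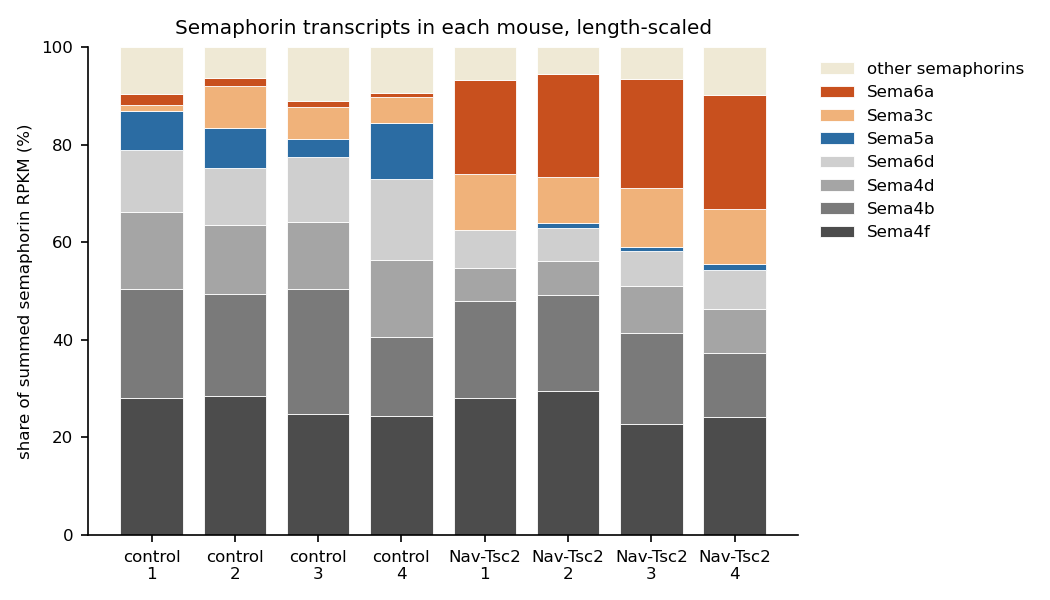
Share of the summed semaphorin RPKM (vertical axis, percent) held by each of 7 semaphorins and by the remaining ones together, in each of the 8 mice (1 bar per mouse). Sema6a takes 0.784 to 2.26% in the control mice and 19.2 to 23.3% in the Nav-Tsc2 mice, while Sema5a takes 3.77 to 11.6% and 0.0811 to 1.26%.

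Sema5a, a transmembrane semaphorin with thrombospondin repeats that can act as attractant or repellent, moved the other way. It was measured at 52.8, 60.8, 25.2 and 80.9 CPM in the control mice and at 0.967, 11.7, 8.64 and 11.4 CPM in the Nav-Tsc2 mice. Every Nav-Tsc2 mouse lay below every control mouse, by 6.70-fold on average (log2 fold change -2.74 ± 0.63; edgeR, adjusted p = 0.0139). The 3 libraries of a mouse differed widely for this gene, from 0.390 to 138 CPM over the control libraries and from 0.122 to 26.1 CPM over the Nav-Tsc2 libraries. In the fit that kept the 24 libraries apart with the mouse as a random effect, Sema5a was not called. The gene occupies positions 32244810 to 32696341 on the plus strand of chromosome 15.

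Sema3c, a secreted semaphorin that acts through neuropilins and plexins, was at 2.95, 24.5, 16.3 and 13.9 CPM in the control mice. In the Nav-Tsc2 mice it was at 52.0, 43.3, 48.8 and 39.0 CPM, so that the groups did not overlap and control mouse 1 lay well below the other controls. The log2 fold change was 1.67 ± 0.48 (edgeR, adjusted p = 0.0349). With the replicate number as a block it was 1.92 and the call was lost (edgeR, adjusted p = 0.0560). The call was also lost without control mouse 3 or 4 and without any one of the Nav-Tsc2 mice. The gene is on chromosome 5, plus strand, from 17574281 to 17730268.

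Sema4f, a transmembrane semaphorin of class 4, had the highest control RPKM of the semaphorins. It was measured at 51.5, 59.9, 46.8 and 48.0 CPM in the control mice and at 94.7, 98.9, 68.2 and 61.8 CPM in the Nav-Tsc2 mice. All Nav-Tsc2 mice were above all controls, with the female pair nearest to them. The log2 fold change was 0.65 ± 0.17 (edgeR, adjusted p = 0.0216), and it was not called without control mouse 4, Nav-Tsc2 mouse 1 or Nav-Tsc2 mouse 2. The gene is on chromosome 6, minus strand, from 82911885 to 82939769.

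The other 13 tested semaphorins were not called. Sema4b, Sema4d and Sema6d, which with Sema4f made up most of the class in control mice, were at 44.0 ± 7.38, 42.1 ± 3.24 and 52.7 ± 8.57 CPM in control and at 59.3 ± 16.5, 35.3 ± 4.66 and 45.7 ± 5.01 CPM in Nav-Tsc2 mice. Sema6c was low throughout and came closest to a call, at 0.305, 0.114, 0.289 and 0.442 CPM in control and 0.699, 1.08, 1.13 and 0.812 CPM in Nav-Tsc2 mice (log2 fold change 1.69 ± 0.57; edgeR, adjusted p = 0.0624). Sema3f, the secreted ligand of Nrp2, was at 2.06 ± 0.936 CPM in control and 1.11 ± 0.240 CPM in Nav-Tsc2 mice (edgeR, adjusted p = 0.179). Sema3a, the secreted ligand of Nrp1, had 9 counts over the control mice and 22 over the Nav-Tsc2 mice and was too low to test, as were Sema5b with 19 and 25 counts and Sema6b with 20 and 34 counts.

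**Figure D3:**
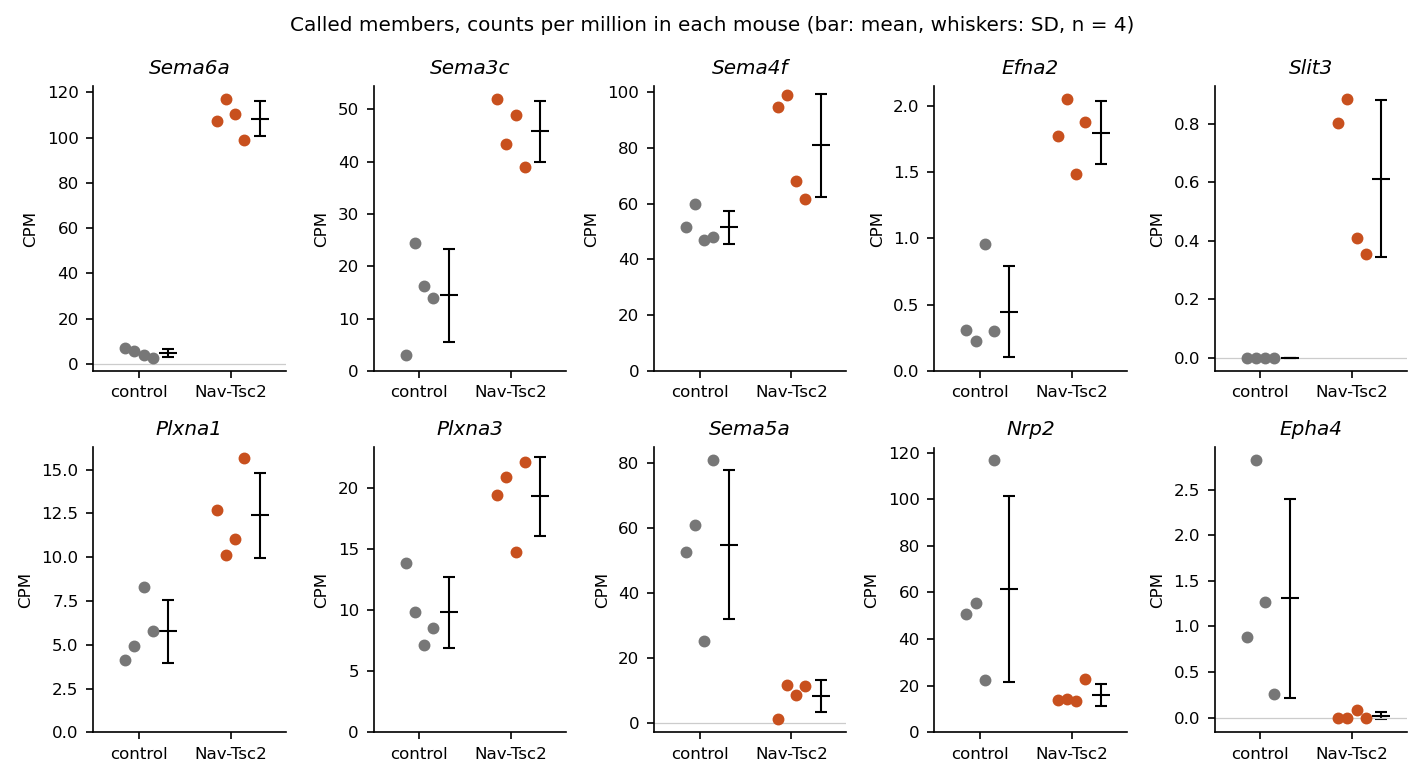
CPM (vertical axes, linear and including 0) of the 10 called members in each control mouse (grey) and each Nav-Tsc2 mouse (orange), with the mean and SD of 4 mice beside the points. The genotypes do not overlap in 9 of the 10 panels, which show only genes chosen for their difference. Over all tested members the share without overlap was 26.8%, against 26.9% of all tested genes. In the panel of Nrp2 control mouse 3 at 22.6 CPM and Nav-Tsc2 mouse 4 at 23.0 CPM meet.

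The ephrins are ligands anchored in the membrane, and Efna1 and Efna5 held ranks 1 and 2 of all members by RPKM in both genotypes. Efna1 was at 147 ± 27.2 CPM in control and 142 ± 14.3 CPM in Nav-Tsc2 mice (edgeR, adjusted p = 0.851). Efna5 was at 211, 212, 178 and 163 CPM in the control mice and at 154, 131, 143 and 116 CPM in the Nav-Tsc2 mice. The groups did not overlap, and the log2 fold change of -0.49 ± 0.12 (edgeR, adjusted p = 0.0171) passed the test but fell just short of the fold required for a call. Efna5 was called in 9 of 18 other fits.

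Efna2 was the ephrin that was called, from a low level. It was measured at 0.305, 0.227, 0.959 and 0.301 CPM in the control mice and at 1.77, 2.05, 1.49 and 1.88 CPM in the Nav-Tsc2 mice, with no overlap and with control mouse 3 apart from the other controls. The log2 fold change was 2.00 ± 0.55 (edgeR, adjusted p = 0.0307). The replicate block gave 2.25 and no call (edgeR, adjusted p = 0.0615), and Efna2 was called in 6 of 18 other fits. Without control mouse 3 the log2 fold change was 2.67 (edgeR, adjusted p = 0.0048). It lies on the plus strand of chromosome 10 from 80179482 to 80190010. The B-type ephrins Efnb1, Efnb2 and Efnb3 were not called. Efna3 with 79 counts in control and 30 in Nav-Tsc2 mice and Efna4 with 28 and 51 counts were not tested.

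Slits and netrins were low in these neurons. Slit3 had no count in any control library and 135 counts over 11 Nav-Tsc2 libraries, at 0.802, 0.885, 0.408 and 0.355 CPM in the 4 mice. With the control group set to its floor of 3 counts, or 0.0138 CPM over the group, Slit3 was at least 44.3-fold higher in Nav-Tsc2 mice. The reads carried no molecular identifiers, so this floor covers counting error only. The call rests instead on the fitted log2 fold change of 8.09 (edgeR, adjusted p = 0.0030), which has no control count behind it. Slit3 had enough counts to be tested through the Nav-Tsc2 mice alone, and is among the 7 members called higher. The gene is on chromosome 11, plus strand, from 35121224 to 35708507. Slit1, the highest Slit in control mice by RPKM, was at 2.07 ± 1.41 CPM in control and 1.64 ± 0.460 CPM in Nav-Tsc2 mice (edgeR, adjusted p = 0.694). Slit2 was at 1.29, 0.0379, 2.79 and 0.582 CPM in control and at 2.41, 3.41, 5.47 and 3.52 CPM in Nav-Tsc2 mice, with overlap (edgeR, adjusted p = 0.211). Ntn4, a netrin related to laminins, was at 0.0508, 0.170, 0 and 0 CPM in control and at 0.802, 1.08, 0.457 and 0.339 CPM in Nav-Tsc2 mice. The groups did not overlap, but the test was not passed (log2 fold change 3.54 ± 1.15; edgeR, adjusted p = 0.0547). Like Slit3, Ntn4 had enough counts to be tested through the Nav-Tsc2 mice alone. Ntn4 was called with the replicate block (edgeR, adjusted p = 0.0463), with sex as a covariate (edgeR, adjusted p = 0.0197) and with DESeq2 (adjusted p = 0.0089). Without control mouse 2, which held the most of its few control counts, the log2 fold change was 5.07 and was called (edgeR, adjusted p = 0.0243). In every other refit that tested Ntn4 it was not called, with an adjusted p of 0.0514 to 0.148 (edgeR). The fit with the 24 libraries did not test it. Ntn1, with 19 and 59 counts, and Ntn5, with 2 and 1, were not tested.

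Among the receptors, 1 of the 2 neuropilins fell and the other missed the test. Nrp2, the co-receptor for class 3 semaphorins such as Sema3f, was at 50.9, 55.6, 22.6 and 117 CPM in the control mice and at 13.7, 14.3, 13.4 and 23.0 CPM in the Nav-Tsc2 mice. Control mouse 4 was the highest and control mouse 3 the lowest of its group, and the latter met Nav-Tsc2 mouse 4. The difference was 3.82-fold (log2 fold change -1.93 ± 0.43; edgeR, adjusted p = 0.0115) and was called in 17 of 18 other fits. The gene is on the plus strand of chromosome 1 from 62703285 to 62818695.

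Nrp1, which pairs with plexins as receptor for Sema3a and also binds VEGF, was at 115, 132, 63.4 and 155 CPM in control and at 45.8, 69.1, 49.8 and 87.4 CPM in Nav-Tsc2 mice. The groups overlapped, and the log2 fold change of -0.88 ± 0.28 missed the test (edgeR, adjusted p = 0.0522). With the replicate block it was -0.86 and passed (edgeR, adjusted p = 0.0186). Control mouse 3 had the lowest and control mouse 4 the highest level of both neuropilins. The ratio of Nrp1 to Nrp2 was 2.65 ± 0.751 in control and 4.75 ± 0.767 in Nav-Tsc2 mice by RPKM. The summed neuropilin RPKM was 17.1 ± 7.13 in control and 7.80 ± 2.31 in Nav-Tsc2 mice, with the lowest control mouse at 8.39 RPKM and the highest Nav-Tsc2 mouse at 10.9 RPKM.

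Of the 8 plexins, the signal-transducing receptors of semaphorins, 2 rose and none fell. Plxna1 was at 4.15, 4.90, 8.28 and 5.78 CPM in the control mice and at 12.7, 10.1, 11.0 and 15.7 CPM in the Nav-Tsc2 mice, without overlap (log2 fold change 1.10 ± 0.25; edgeR, adjusted p = 0.0141). Of its exon length, 10.7% overlaps the gene model Gm26811. The strand setting of the counting was not given in the sources used here, so reads from that stretch cannot be placed with certainty. Plxna3 was at 13.9, 9.85, 7.13 and 8.55 CPM in control and at 19.4, 20.9, 14.8 and 22.2 CPM in Nav-Tsc2 mice, also without overlap (log2 fold change 0.97 ± 0.23; edgeR, adjusted p = 0.0149). Both belong to the A-type plexins, which also include Plxna2 and Plxna4 and are known to team up with neuropilins for class 3 semaphorins. Plxna1 lies on the minus strand of chromosome 6 from 89316314 to 89362620, and Plxna3 on the plus strand of the X chromosome from 74329066 to 74344689. The other 6 plexins were not called, and Plxnd1, a receptor for class 3 semaphorins, was at 25.9 ± 1.37 CPM in control and 28.3 ± 5.63 CPM in Nav-Tsc2 mice (edgeR, adjusted p = 0.619).

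**Figure D4:**
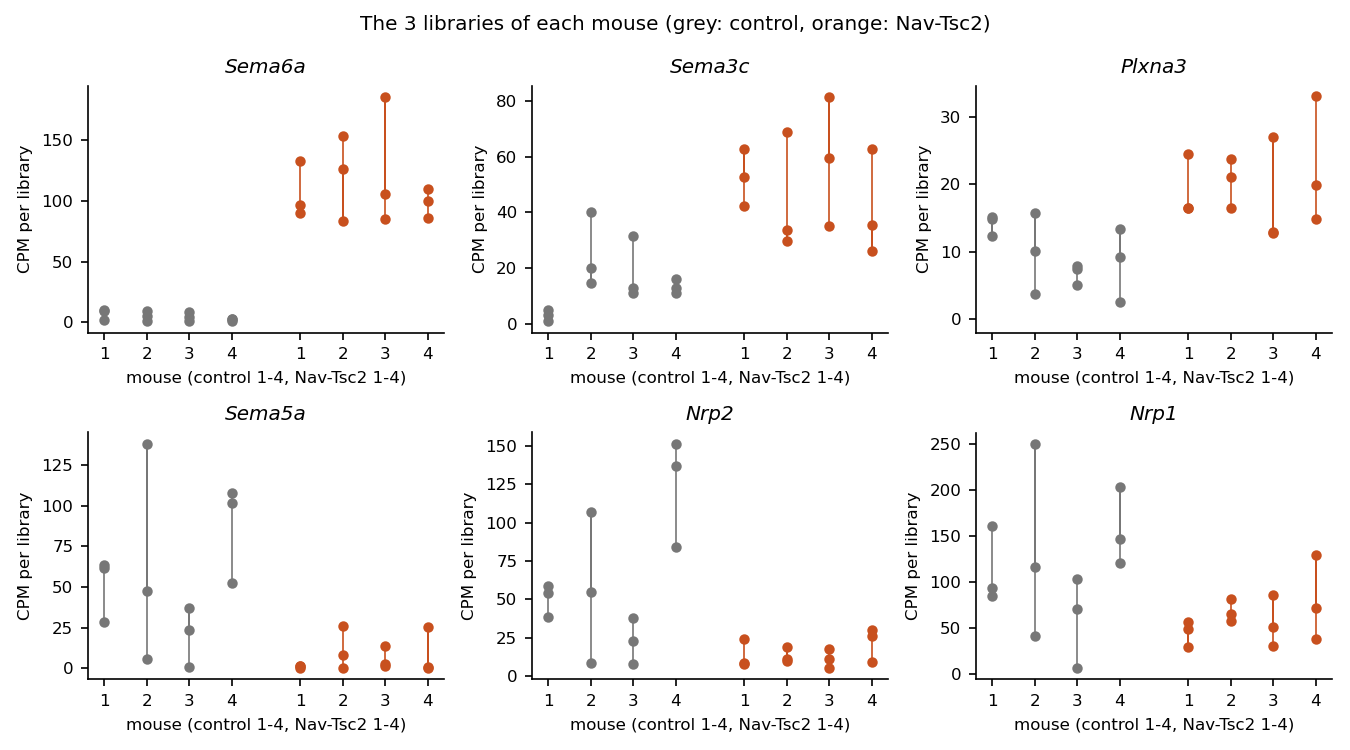
CPM per library (vertical axes) for 6 members, with the 3 libraries of each mouse joined by a line, for control mice 1 to 4 (grey) and Nav-Tsc2 mice 1 to 4 (orange). The libraries of Sema6a do not overlap between genotypes, whereas 3 of the 12 control libraries of Sema5a, 3 of Nrp2 and 7 of Nrp1 lie within the range of the Nav-Tsc2 libraries.

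Of the Eph receptors, Epha4, which binds ephrins of both the A and the B type, was the single gene called. It was at 0.881, 2.82, 1.27 and 0.261 CPM in the control mice, and at 0, 0, 0.0817 and 0 CPM in the Nav-Tsc2 mice. The control mice had 284 counts over 8 libraries and the Nav-Tsc2 mice 5 counts in 1 library. The fitted log2 fold change was -5.80 ± 1.33 (edgeR, adjusted p = 0.0137), a value that rests on those 5 counts. Epha4 had enough counts to be tested through the control mice alone, and is among the members called lower. It was -5.10 without control mouse 2 (edgeR, adjusted p = 0.0339), and without Nav-Tsc2 mouse 3 the Nav-Tsc2 group was at 0 throughout (edgeR, adjusted p = 0.0117). Epha4 lies on the minus strand of chromosome 1 from 77367185 to 77515088. Epha8 had 79 counts in control and 4 in Nav-Tsc2 mice and was too low to test, like Epha1 with 15 and 24 counts.

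The remaining Eph receptors were not called, with a median log2 fold change of 0.57 over the 12 tested genes of the class and 10 of them above 0. Ephb6, a receptor without kinase activity and the highest of the class in control mice by RPKM, was at 12.9, 12.7, 12.6 and 14.3 CPM in control and at 17.5, 17.4, 13.8 and 17.4 CPM in Nav-Tsc2 mice. Nav-Tsc2 mouse 3 stood within the control range and the other 3 above it (log2 fold change 0.34 ± 0.14; edgeR, adjusted p = 0.122). Epha7 was at 7.81, 7.90, 11.0 and 3.90 CPM in control and at 14.4, 14.4, 9.41 and 19.3 CPM in Nav-Tsc2 mice (log2 fold change 0.91 ± 0.32; edgeR, adjusted p = 0.0735). Epha5, the second in RPKM of this class, ranged from 14.0 to 46.6 CPM over the control mice and from 27.7 to 48.1 CPM over the Nav-Tsc2 mice (edgeR, adjusted p = 0.596).

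Robo2, the Slit receptor with the highest RPKM of its class, was at 117, 111, 133 and 118 CPM in the control mice and at 105, 90.4, 85.4 and 80.2 CPM in the Nav-Tsc2 mice. The groups did not overlap and the test was passed (edgeR, adjusted p = 0.0207), but the log2 fold change of -0.41 ± 0.10 was smaller than a call required. Robo1 was at 3.25 ± 0.506 and 3.16 ± 1.20 CPM (edgeR, adjusted p = 0.954). Robo3 had 1 count in each genotype. Robo4, which is known mainly from endothelium, had 0 counts in control and 25 in 2 Nav-Tsc2 libraries, and neither was tested. Among netrin receptors, Neo1 was at 18.0, 13.3, 21.7 and 20.4 CPM in control and at 24.7, 25.5, 23.4 and 27.1 CPM in Nav-Tsc2 mice, without overlap but short of the test (log2 fold change 0.45 ± 0.16; edgeR, adjusted p = 0.0772). None of the 4 Unc5 receptors was called. Dcc had 0 counts in all 24 libraries.

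No member passed the test for a response to genotype that differed between the sexes. The genotype by sex term had an adjusted p below 0.05 for 0 of the 56 tested members (edgeR), 5 of them had an unadjusted p below 0.05, and the lowest adjusted p was 0.304, for Plxna4. Over all genes 1 had an adjusted p below 0.05. The 10 called members had the same sign in males, in females and in all mice together. For the 9 whose mice did not overlap between genotypes, this followed from that separation and says nothing about sex. With 2 mice a group, 4 members were called lower and 5 higher in males alone, and 0 lower and 3 higher in females alone.

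The other genes of the axon guidance pathway were read from a list of 76, made up of further surface or secreted partners and of intracellular signaling genes. Of these, 75 were tested. Nav-Tsc2 mice had 11 of them lower (14.7%) and 14 higher (18.7%). The shares over all tested genes were 8.00% and 9.12%. The log2 fold change of the median gene of the list was 0.088, beside 0.0082 over all tested genes. Flrt3, an adhesion molecule that binds Unc5 receptors and Robo1, had the largest rise, from 42.6, 29.5, 39.4 and 32.1 CPM in control to 242, 212, 216 and 248 CPM in Nav-Tsc2 mice (log2 fold change 2.67 ± 0.13; edgeR, adjusted p = 6.29e-06). Myo10, a motor of filopodia that carries netrin receptors, rose from 10.1 ± 2.46 to 37.4 ± 2.60 CPM (1.88 ± 0.18 on the log2 scale, adjusted p = 0.000175). Arhgef15, a RhoA exchange factor that acts downstream of Eph receptors, rose from 4.87 ± 1.64 to 16.7 ± 4.10 CPM (1.78 ± 0.27, adjusted p = 0.0020).

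Falls were largest for Ngef, Cntn1 and Flrt1. Ngef encodes ephexin, the exchange factor that couples Epha4 to RhoA, and was at 3.39, 1.57, 7.34 and 2.99 CPM in control and at 0, 0.142, 0.245 and 0.118 CPM in Nav-Tsc2 mice (log2 fold change -4.87 ± 0.88; edgeR, adjusted p = 0.0042). Both Epha4 and Ngef were thus close to 0 in the Nav-Tsc2 mice, and both had enough counts to be tested through the control mice alone. Cntn1, a cell adhesion molecule of axons, was at 475 ± 167 CPM in control and 76.2 ± 39.1 CPM in Nav-Tsc2 mice (-2.64 ± 0.39, adjusted p = 0.0017), and Flrt1 at 32.3 ± 10.1 and 6.80 ± 4.52 CPM (-2.25 ± 0.45, adjusted p = 0.0074). Without Nav-Tsc2 mouse 1, 2 or 4 the lower genes of this list numbered 6, without control mouse 4 or Nav-Tsc2 mouse 3 they numbered 7, and without Nav-Tsc2 mouse 1 the higher genes numbered 9.

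**Figure D5:**
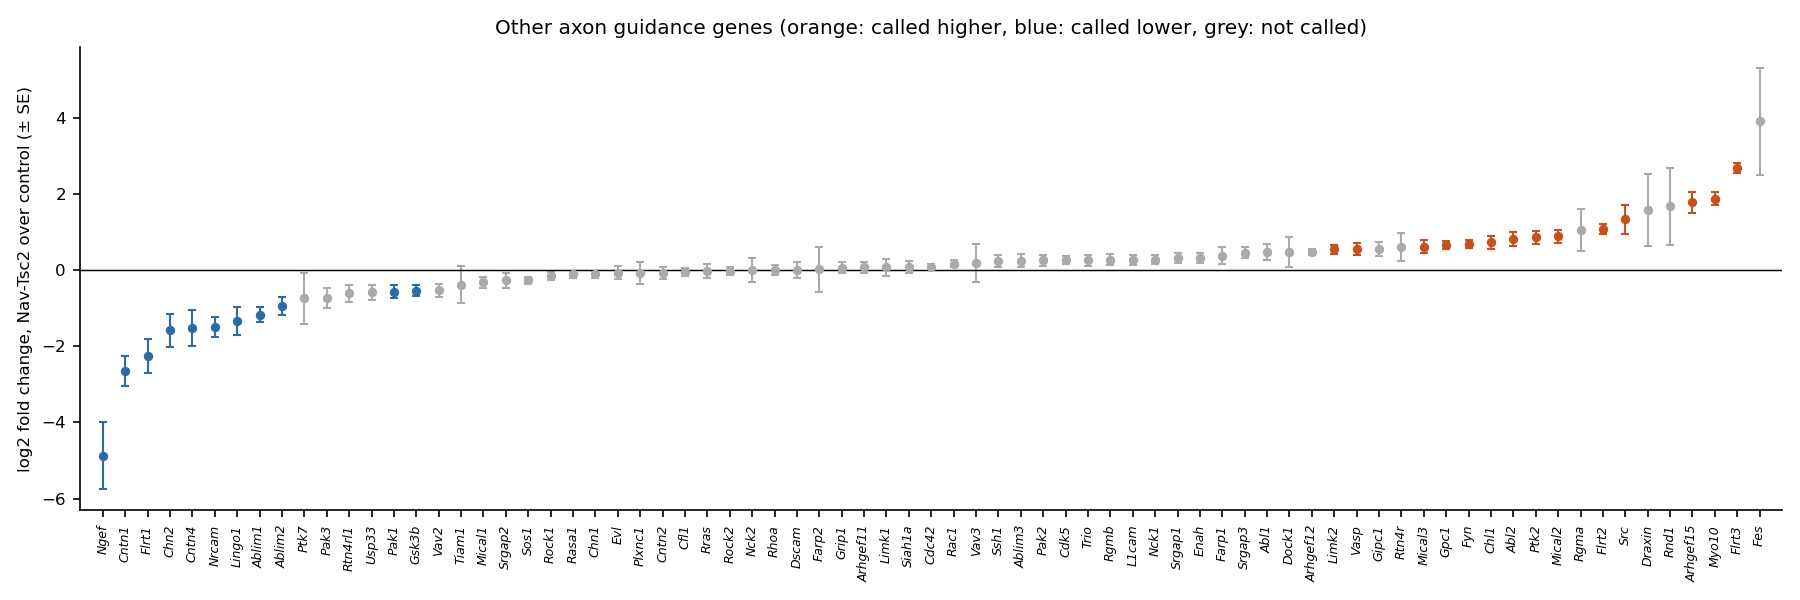
Log2 fold change (Nav-Tsc2 over control, vertical axis) with its SE for the 75 tested genes of the wider axon guidance list, ordered from lowest to highest along the horizontal axis. Orange points (14) were called higher, blue points (11) lower and grey points not called. Ngef at -4.87 and Flrt3 at 2.67 are the called genes at either end.

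Markers of other cell types moved with genotype too. The summed level of 8 endothelial markers was 1.00 to 2.26 CPM in the control mice and 7.81 to 20.6 CPM in the Nav-Tsc2 mice, and 3 of the 4 tested were called higher (Flt1, Kdr and Ly6c1). The defining endothelial markers Cldn5, Cdh5 and Pecam1 were at 0.0151 ± 0.0301, 0.0511 ± 0.0906 and 0.422 ± 0.778 CPM in control and at 0.0239 ± 0.0264, 0.115 ± 0.118 and 0.315 ± 0.374 CPM in Nav-Tsc2 mice, and were too low to test. Emcn, also not tested, was at 0.384 ± 0.303 and 0.0309 ± 0.0617 CPM, and Tek, not called, at 0.510 ± 0.741 and 0.563 ± 0.598 CPM. The 5 mural markers summed to 4.39 to 47.2 CPM in control and 19.3 to 147 CPM in Nav-Tsc2 mice (Pdgfrb and Acta2 called higher). Rgs5, not called, weighed most on the top of these ranges. It was at 2.24, 1.23, 0.724 and 38.7 CPM in control and at 90.6, 1.19, 0.800 and 124 CPM in Nav-Tsc2 mice. Notch3, not called, had means of 0.535 and 0.525 CPM, and Kcnj8, not tested, had 0 and 2 counts. The 8 macrophage markers summed to 1.77 to 7.73 CPM in control and 7.90 to 19.4 CPM in Nav-Tsc2 mice. Cx3cr1, called higher, had means of 0.0328 and 5.71 CPM. Of the 5 macrophage markers tested, 4 had a log2 fold change above 0 and 1 below. The latter was C1qb, not called, with means of 1.75 CPM in control and 0.574 CPM in Nav-Tsc2 mice. Ptprc, at means of 0.203 and 0.0129 CPM, and Adgre1, at 0.196 and 0.102 CPM, were too low to test. The 6 fibroblast markers summed to 73.1 to 236 CPM in control and 121 to 196 CPM in Nav-Tsc2 mice, with none called. Glial markers, 10 in number, summed to 2981 to 3110 CPM in control and 1962 to 2542 CPM in Nav-Tsc2 mice. S100b was called lower, at 939 ± 166 CPM in control and 98.6 ± 71.2 CPM in Nav-Tsc2 mice, and the other 9 were not called. The 9 nociceptor markers summed to 10274 to 18165 CPM in control and 5996 to 8266 CPM in Nav-Tsc2 mice. Calca, called lower, weighed most on these sums, at 10162 ± 4518 CPM in control and 2557 ± 616 CPM in Nav-Tsc2 mice. Prph, called higher, was at 902 ± 158 and 1481 ± 291 CPM. Of the 9 markers, 5 had a log2 fold change above 0 and 4 below. The 6 markers of large myelinated neurons ranged from 561 to 998 CPM in control and from 490 to 764 CPM in Nav-Tsc2 mice, with none called, and the 4 red cell markers from 1.18 to 1.66 and from 0.144 to 0.389 CPM. The part of these shifts in the values of Slit3, Robo4, Ntn4 and the other guidance genes was not tested.

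The sequences upstream of 5 called members are shown, from genes that fell (Sema5a, Nrp2 and Epha4) and from some that rose (Plxna3 and Sema4f). They run 5′ to 3′ on the strand of the gene from 250 to 51 bases before the RefSeq start site (GRCm38.p6), in lower case, with each GC box (GGGCGG on either strand) in capitals. The windows are chr15:32244563-32244762 (plus) for Sema5a, chr1:62703067-62703266 (plus) for Nrp2, chr1:77515139-77515338 (minus) for Epha4, chrX:74328816-74329015 (plus) for Plxna3 and chr6:82939820-82940019 (minus) for Sema4f.
Sema5a: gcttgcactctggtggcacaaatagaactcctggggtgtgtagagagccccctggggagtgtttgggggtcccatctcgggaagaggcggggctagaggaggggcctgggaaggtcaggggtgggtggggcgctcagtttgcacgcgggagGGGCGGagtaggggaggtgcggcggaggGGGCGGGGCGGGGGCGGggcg
Nrp2: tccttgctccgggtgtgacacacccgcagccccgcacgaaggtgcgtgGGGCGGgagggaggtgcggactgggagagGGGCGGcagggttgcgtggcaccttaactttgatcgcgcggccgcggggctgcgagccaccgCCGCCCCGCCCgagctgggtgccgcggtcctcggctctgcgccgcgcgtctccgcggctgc
Epha4: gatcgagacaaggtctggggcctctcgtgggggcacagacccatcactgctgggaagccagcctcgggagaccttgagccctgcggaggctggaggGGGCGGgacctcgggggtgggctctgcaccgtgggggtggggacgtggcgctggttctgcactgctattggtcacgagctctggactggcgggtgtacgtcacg
Plxna3: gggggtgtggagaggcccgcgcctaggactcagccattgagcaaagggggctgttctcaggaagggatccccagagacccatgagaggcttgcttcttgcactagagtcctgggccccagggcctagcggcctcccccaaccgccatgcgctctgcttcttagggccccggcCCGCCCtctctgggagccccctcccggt
Sema4f: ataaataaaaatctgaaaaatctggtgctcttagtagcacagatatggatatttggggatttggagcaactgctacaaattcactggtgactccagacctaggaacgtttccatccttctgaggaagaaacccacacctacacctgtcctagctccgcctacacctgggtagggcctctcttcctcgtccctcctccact

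A promoter window of 300 bases, from 250 before to 50 after the start, was found in RefSeq for 58 of the 68 members. The GC box was in 35.7% of all 32851 windows and in 52 of 74 windows of members (70.3%), which were richer in G and C, with a median of 64.2% against 52.7%. Sema5a and Nrp2, which fell, had 5 GC boxes each and Epha4 had 1. Slit3 had 6, Sema3c 3, Plxna3 and Efna2 2 each and Sema4f none among those that rose. Of these, only Plxna3 and Sema4f are printed above, while Slit3, Sema3c and Efna2 are not. The printed sequences therefore cannot be read as a contrast in GC boxes between genes that fell and genes that rose. The E-box CACGTG was in 7.15% of all windows and in 5 of the 74 member windows, those of Epha8, Robo2, Sema3e, Sema4b and Sema6d. The ATF4 composite element TGATGNAA was in 3.97% of all windows and in 0 of the 74. The windows of Sema5a, Nrp2, Epha4, Plxna3, Sema4f, Sema3c, Efna2 and Slit3 held neither of the latter motifs, and those of the called members Sema6a and Plxna1 were not analysed here.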

How the data were processed

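Gene expression was measured by RNA-seq in 24 libraries, 3 for each of 4 control and 4 Nav-Tsc2 mice. The authors prepared cDNA with the SMARTer Ultra Low kit, which adds no molecular identifiers, sequenced single 50-base reads, used STAR for alignment to mm10 and HTSeq for counting. The deposited count files hold 1 raw count per gene and library. Tool versions, gene annotation and strand setting were not given in the sources used here. Between 47.6 and 55.9% of each library's HTSeq total was not assigned to a gene and was left out.

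The 3 libraries of a mouse were summed, as in the study, and symbols, exon lengths and coordinates were taken from GENCODE M21 (GRCm38), which matched 47224 of 47643 identifiers. Genes that passed filterByExpr (17178) were fitted with TMM scaling and the quasi-likelihood F-test of edgeR 4.0.16 (R 4.3.3), with Benjamini-Hochberg adjustment over all of them. The fold and p thresholds were those of the study. CPM values use TMM-scaled library sizes, and RPKM divides them by exon length in kilobases. Alternatives used DESeq2 1.42.0, limma 3.58.1 with 24 libraries, other scalings, filters, covariates and left-out mice. The fits were tested on simulated data.

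Same-numbered mice of both genotypes deviated together, with correlations of 0.184, 0.185, 0.108 and 0.199 over 8445 genes, so a fit with the replicate number as a block is given where it changes a call. Mice of the same sex with different numbers had correlations of 0.198, 0.186, 0.110 and 0.0627, so the numbers cannot be told apart from sex by this check, and the labels state no pairing.

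The members, the wider guidance list and the marker lists were chosen with earlier results of these data known. Named were Tsc2, every called member, the highest member of each class by control RPKM, the 6 members nearest to a call, all untested members with their counts, members with a mouse set apart, and the 3 largest called rises and falls of the wider list. Other members were named after their values were seen. A marker of the nociceptor list is not reported here, and its sums leave it out. The deposited table of the authors' own DESeq2 comparison (normalized signal, log2 fold changes, Wald scores, p-values) was not used. The library depth behind each value is given with the results.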

Additional observations from a re-analysis of the deposited data

Results flagged for a closer look

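In 43 groups of 4 mice, each 1 named member or Tsc2 in 1 genotype, 4 had a mouse set apart from the other 3 by Dixon's criterion, where chance gives about 1 in 20 groups. Epha4 was at 0.0817 CPM in Nav-Tsc2 mouse 3 and at 0 in the other 3 Nav-Tsc2 mice. With 3 mice at 0 any count in the remaining mouse meets the criterion, so this flag says nothing beyond its 5 counts. Efna2 was at 0.959 CPM in control mouse 3, against 0.227 to 0.305 CPM in the other controls. Nrp2 was at 23.0 CPM in Nav-Tsc2 mouse 4, against 13.4 to 14.3 CPM in the others, and this mouse met the lowest control. Ephb6 was at 13.8 CPM in Nav-Tsc2 mouse 3, against 17.4 to 17.5 CPM in the others.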

How the results depend on the processing

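Of the 416 values that the 21 named members took under 20 alternatives, 334 kept their direction and their side of the call, 41 lost the call, 29 gained it and 12 changed sign, and the causes of these changes were not tested. Sema6a was called in all 18 refits. The lower members numbered 3 and became 5 with DESeq2 size factors, 5 with upper-quartile scaling, 6 with DESeq2 and 5 with libraries weighted equally. They numbered 0 in female mice only, 0 at an adjusted p under 0.01 and 5 with no minimum fold change. With 24 libraries and the mouse as a random effect they numbered 1. In that fit Epha4 and Slit3 were not tested, and Sema5a lost its call (limma, adjusted p = 0.0924). The higher members numbered 7 and became 10 with DESeq2, 9 with sex as a covariate and 11 with the 24 libraries. They numbered 3 in female mice only and 2 at an adjusted p under 0.01. Of the wider list, 11 genes were lower, and 6 in male mice only, 4 in female mice only and 5 at an adjusted p under 0.01, while 14 were higher, and 4 in female mice only and 8 at an adjusted p under 0.01. Leaving out 1 mouse in turn gave 3 to 5 lower and 4 to 8 higher members, 6 to 12 lower and 9 to 15 higher genes of the wider list, a member median of 0.32 to 0.49 on the log2 scale and a Tsc2 log2 fold change of -1.40 to -1.15. Tsc2 missed the threshold in male mice only (-1.15, adjusted p = 0.0749) and in female mice only (-1.32, adjusted p = 0.0784), with 2 mice a group. Members with a log2 fold change near 0 changed sign without passing the test: Slit1 (-0.53 to 0.25 over left-out mice) without control replicate 3 and in males only (0.43), Efna1 with 24 libraries (0.026), without control replicate 2 and without Nav-Tsc2 replicate 3 (-0.12 to 0.086 over left-out mice), and Plxna2 with sex as a covariate (0.049), 24 libraries (0.10), without control replicate 2 or Nav-Tsc2 replicate 3 or 4 (-0.25 to 0.42 over left-out mice) and in females only (0.41).

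With the replicate number as a block, 4 members were lower and 6 higher. Nrp1 and Ntn4 gained the call, Sema3c and Efna2 lost it, and Plxna2 changed sign to 0.099. The block changed no other member's call. Members such as Epha4, Slit3, Ntn4 and the 12 that were not tested rest on few counts. The part of depth and of the small pools of 100 cells in this was not tested.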
